A study of Mus musculus with 14 samples.

Results

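The 9 genes examined encode the vascular endothelial growth factor (Vegf) ligands Vegfa, Vegfb, Vegfc and Pgf, their receptors Kdr, Flt1 and Flt4, and the co-receptors Nrp1 and Nrp2. They were taken by symbol from a table of 36118 genes. All 9 passed the filter on low counts, which left 16637 genes to be tested. The study asked how deficiency of gasdermin D, the pore-forming protein that carries out pyroptosis, changed the response of the neonatal mouse brain to hyperoxia. RNA was taken from the hippocampus at postnatal day 15, after room air (RA) or 85% O2 from day 1 to day 14, with 1 library per mouse. There were 4 wildtype mice in room air (WT-RA), 4 wildtype mice in hyperoxia (WT-O2), 3 Gsdmd knockout mice in room air (KO-RA) and 3 knockout mice in hyperoxia (KO-O2), all labelled C57/BL6. The knockout is global, from a CRISPR deletion in the fifth exon of Gsdmd, so it was present in every cell type and at every age. WT mice were littermates from matings of heterozygous parents. The litter and sex of single mice were not used here.

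Vegf ligands bind receptor tyrosine kinases on endothelial cells and drive the growth, permeability and survival of blood vessels. Vegfa acts mainly through Kdr, the main signalling receptor, while Flt1 binds Vegfa tightly, signals weakly and in its soluble form holds ligand back. Vegfb and Pgf bind Flt1, and Vegfc is the ligand of Flt4, a receptor best known from lymphatic vessels. The neuropilins carry no kinase and serve more than one family of ligands, since they present Vegf to its receptors and also bind class 3 semaphorins, with which they guide axons through plexins. In the brain Vegfa is made by astrocytes, neurons and choroid plexus and is a target of the hypoxia-inducible factors (HIF), while neuropilins are found on neurons as well as on vessels.

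The sequences before the start sites of Nrp2, Nrp1, Vegfa and Flt1 are shown first, since the text returns to these members by name. Each is the stretch of 250 bases before an annotated RefSeq transcription start in build GRCm38.p6, read 5′ to 3′ on the strand of the gene. Capitals mark, on either strand, the GC box GGGCGG, the HIF core letters ACGTG and GCGTG, the TATA letters TATAAA and the cAMP response letters TGACGTCA. The windows are Nrp2 on the plus strand at chr1:62703067-62703316, Nrp1 on the plus strand at chr8:128358823-128359072, the first Vegfa start on the minus strand at chr17:46032378-46032627, a second Vegfa start on the minus strand at chr17:46025164-46025413, and Flt1 on the minus strand at chr5:147726012-147726261.
Nrp2: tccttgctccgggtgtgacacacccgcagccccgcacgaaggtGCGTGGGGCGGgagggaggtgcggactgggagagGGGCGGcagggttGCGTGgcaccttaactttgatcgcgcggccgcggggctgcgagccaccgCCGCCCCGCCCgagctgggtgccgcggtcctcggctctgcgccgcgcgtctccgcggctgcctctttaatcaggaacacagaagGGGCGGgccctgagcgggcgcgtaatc
Nrp1: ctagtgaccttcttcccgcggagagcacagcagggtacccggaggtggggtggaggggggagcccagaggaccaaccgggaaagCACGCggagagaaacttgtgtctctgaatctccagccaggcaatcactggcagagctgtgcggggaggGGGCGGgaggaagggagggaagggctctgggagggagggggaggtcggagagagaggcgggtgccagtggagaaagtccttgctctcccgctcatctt
Vegfa, first start: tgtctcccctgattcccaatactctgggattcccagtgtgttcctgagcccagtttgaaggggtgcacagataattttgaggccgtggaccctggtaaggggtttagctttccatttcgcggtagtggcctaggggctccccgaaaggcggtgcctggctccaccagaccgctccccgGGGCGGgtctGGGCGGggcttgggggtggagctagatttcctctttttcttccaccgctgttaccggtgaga
Vegfa, second start: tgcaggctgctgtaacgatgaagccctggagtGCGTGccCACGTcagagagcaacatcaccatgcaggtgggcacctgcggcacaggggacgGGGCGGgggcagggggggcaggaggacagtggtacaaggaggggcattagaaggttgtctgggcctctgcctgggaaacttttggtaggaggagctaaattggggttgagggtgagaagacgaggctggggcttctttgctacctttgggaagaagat
Flt1: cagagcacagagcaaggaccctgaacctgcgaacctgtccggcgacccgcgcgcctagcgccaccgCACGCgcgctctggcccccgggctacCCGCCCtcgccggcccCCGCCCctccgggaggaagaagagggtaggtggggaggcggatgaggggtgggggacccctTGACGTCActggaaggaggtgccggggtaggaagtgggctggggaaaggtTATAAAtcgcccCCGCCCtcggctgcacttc

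The Nrp2 window held 5 GC boxes and 2 GCGTG. A pair of its GC boxes overlapped by 1 letter, and another followed a GCGTG directly. The Nrp1 window held 1 GC box and 1 GCGTG. At the first start of Vegfa there were 2 GC boxes and no HIF core letters in these 250 bases. The window of the second start held 1 ACGTG and 1 GCGTG. It lies between the 2 starts, so inside the gene and not upstream of it. Whether that window acts as a promoter was not tested, and its letters are not shown to be HIF sites. The Flt1 window held the TATA letters 31 bases and the cAMP response letters 81 bases before the start. Of 32851 windows of the same length over all genes, 32.7% held a GC box, 28.2% GCGTG, 16.6% ACGTG, 12.4% TATAAA and 1.55% TGACGTCA. The G and C content was 72.4% for Nrp2, 64.4% for Nrp1, 59.2% for the first start of Vegfa and 70.4% for Flt1, against a median of 52.4% over all windows. All 9 members matched the RefSeq table, in 11 windows. These letters describe the sequence only.

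The libraries were of like depth, with 27272270 to 28257496 estimated counts, and 6.68% to 10.4% of the counts came from mitochondrial genes. Gsdmd had 41 to 63 counts in the WT libraries and 22 to 42 in the KO libraries, so its reads were present in every knockout mouse. The paper reports that KO brains had no detectable protein by immunostaining and no measurable Gsdmd transcripts by qRT-PCR. The allele is a short deletion within the fifth exon, and whether the reads came from the rest of the gene was not tested. WT-O2 mouse 4 is a hyperoxia mouse by its title and column name but a room air mouse by its treatment field, and was kept in WT-O2. WT and KO mice carry separate ranges of animal numbers, so genotype and that range cannot be told apart. All 12 hippocampal markers were measured, summing to 793.2 to 1807 CPM (counts scaled to the library total). All 9 markers of striatal neurons, such as Drd1 and Penk, were also found, at 408.5 to 946.8 CPM in WT and 160 to 267.6 CPM in KO libraries without overlap. In a bulk sample, fewer cells of a type and less RNA per cell cannot be told apart.

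Differences between groups are given as the log2 fold change of edgeR's quasi-likelihood fit of all 14 libraries with its standard error (SE), and q is that p adjusted by Benjamini-Hochberg for 16637 genes. A gene was called where one mean exceeded the other by at least 25% with p below 0.05 and q below 0.1. Levels are CPM scaled by edgeR's TMM method. Each library is a separate mouse, so the tests measure the spread between mice.

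Nrp2 was called between the WT groups, with the larger mean after hyperoxia, though not under every alternative fit. Nrp1 was higher in KO than in WT mice in both exposures. In room air, KO mice exceeded WT mice in Nrp2 as well. Vegfa had higher means after hyperoxia in both genotypes, by a like amount, but passed the thresholds in neither. No other ligand or receptor was called in any comparison. In WT-O2 vs WT-RA 1 of 9 members was called, where 0.643% of all genes were. In KO-O2 vs KO-RA none of 9 was called by edgeR, where 0.012% of all genes were, and 1 of 9 had an unadjusted p below 0.05 (4.86% of all genes). In KO-RA vs WT-RA 2 of 9 were called, where 10.4% of all genes were, and in KO-O2 vs WT-O2 1 of 9, where 6.86% were. Groups without overlap were found for 6 of 9 members in KO-RA vs WT-RA (19.6% of all genes) and for 1 of 9 in KO-O2 vs WT-O2 (19%). The median log2 fold change of the 9 members was 0.16, 0.11, 0.10 and 0.10 in these comparisons, where that of all genes lay between -0.01 and 0.00. The comparisons share groups, so their counts are not independent.

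**Figure D1:**
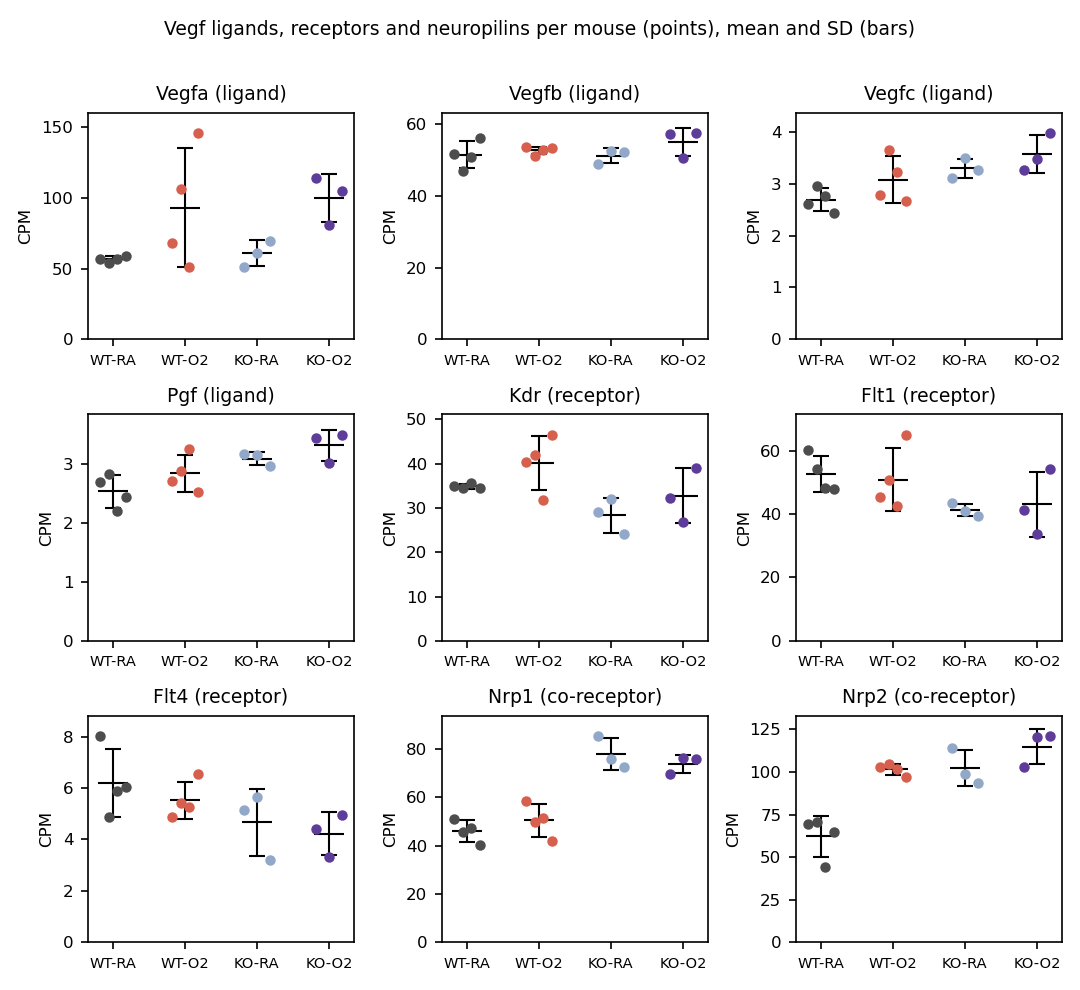
Level in CPM (vertical axes, each from 0) of each member in every mouse, by group, with the mean and SD as bars. The WT-RA mice lay below the other groups for Nrp2, both KO groups lay above both WT groups for Nrp1, and Vegfa spread from 51.3 to 146 CPM in WT-O2.

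Vegfa, the main ligand of vessel growth, stood at 56.7, 54.2, 56.8 and 59.1 CPM in the 4 WT-RA mice. In the 4 WT-O2 mice it stood at 68.2, 106, 51.3 and 146 CPM. Hyperoxia thus went with 3 values above and 1 below all WT-RA mice, and with a spread of 45.3% of the mean against 3.54% in WT-RA. The log2 fold change was 0.71 (SE 0.24, 95% interval 0.21 to 1.22), and edgeR's adjusted p of 0.226 did not pass. In KO-RA mice Vegfa stood at 51.3, 60.9 and 69.8 CPM, and in KO-O2 mice at 114, 80.8 and 104.5 CPM. The KO groups did not overlap, as was the case for 11.8% of all genes. The log2 fold change in KO was 0.72 (SE 0.27, 95% interval 0.14 to 1.30), with an edgeR unadjusted p of 0.0189 and q = 0.98. The means rose from WT-RA through KO-RA and WT-O2 to KO-O2, and each group overlapped the next.

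The WT value of Vegfa rested on few mice. Without WT-O2 mouse 3, the lowest, it was 0.92 and was called by edgeR with q = 0.0934, and without WT-O2 mouse 4, the highest, it fell to 0.41 with q = 0.396. With WT-O2 mouse 4 taken as room air, after its treatment field, the log2 fold change was 0.02. In KO, DESeq2 on the 6 mice called Vegfa with q = 1.31e-05, while edgeR on the same mice gave q = 0.431. Between genotypes the log2 fold change was 0.10 (SE 0.26) in room air and 0.10 (SE 0.25) in hyperoxia, with edgeR q of 0.873 and 0.888. These genotype values depended on the fit. With the striatal and thalamic scores as covariates they were 1.54 and 1.62 (edgeR q of 0.311 and 0.383), and with the hippocampal score, added after the data were seen, 0.86 and 0.87 (edgeR q of 0.481 and 0.653), none of them called. The difference between the hyperoxia responses of KO and WT was 0.00 (SE 0.36, 95% interval -0.76 to 0.77), an interval wide enough to hold a response of KO that differs in either direction.

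The choroid plexus is a known source of Vegfa, and its markers varied widely between KO mice. The 10 markers summed to 103.4 CPM in KO-RA mouse 1 and 182.5 CPM in KO-O2 mouse 2, the mouse of lowest Vegfa in each KO group, against 1025 CPM or more in every other library. With the score of these markers as a covariate, the log2 fold change of Vegfa with hyperoxia was 0.73 in WT and 0.72 in KO. That score is the mean of their log2 CPM standardized gene by gene, not the sum. The choroid sums of the 2 exposures overlapped in each genotype.

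Among 14458 genes of at least 1 CPM, the 3 whose deviations from the group means were most like those of Vegfa over the 14 libraries were Proser2 (r = 0.945, rho = 0.912), P4ha1 (r = 0.945, rho = 0.921), which encodes a collagen prolyl hydroxylase subunit, and Adm (r = 0.938, rho = 0.899), which encodes the vasodilator adrenomedullin. Without WT-O2 mice 3 and 4, the farthest in Vegfa, r was 0.88, 0.852 and 0.891. P4ha1 and Adm are also on the list of 14 HIF targets. The deviations are taken within groups, so a high r does not tell of a like response to hyperoxia. P4ha1 differed with hyperoxia by a log2 fold change of only 0.05 in WT and -0.05 in KO (edgeR q of 0.892 and 0.997). Adm stood between 1.29 and 1.52 CPM in WT-RA mice, and at 3.298, 5.16, 2.44 and 8.42 CPM in WT-O2 mice 1 to 4. Within WT-O2 the mice kept the same order in Adm as in Vegfa. In KO, Adm stood at 0.557, 1.05 and 1.32 CPM in room air and at 6.44, 3.27 and 4.95 CPM in hyperoxia, again in the order of Vegfa. In WT-RA the order differed, since mouse 4 was highest in Vegfa (59.1 CPM) and lowest in Adm (1.29 CPM). Adm was called in WT (log2 fold change 1.80, edgeR q = 0.0612), and its value in KO was 2.32 with q = 0.186. These relations were picked as the highest of many and are descriptions.

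**Figure D2:**
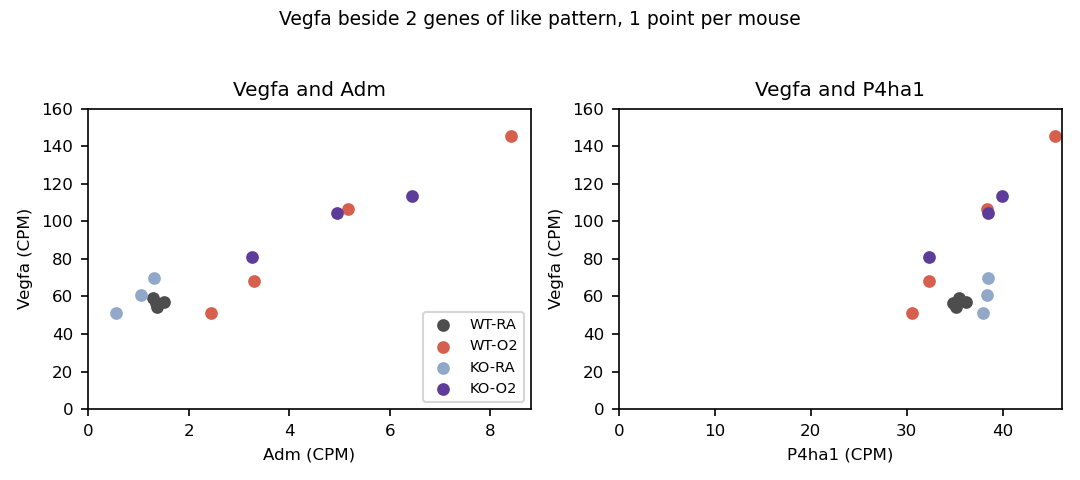
Vegfa (vertical axes, CPM) against Adm and P4ha1 (horizontal axes, CPM), 1 point per mouse. WT-O2 mouse 4 was highest in all 3 genes, and the room air mice lay at 51.3 to 69.8 CPM of Vegfa and below 2 CPM of Adm.

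Vegfb, which binds Flt1, was the steadiest ligand. It stood at 51.8, 47.0, 50.9 and 56.2 CPM in WT-RA mice, at 53.6, 51.2, 52.8 and 53.3 CPM in WT-O2 mice, at 48.9, 52.5 and 52.3 CPM in KO-RA mice and at 57.3, 50.6 and 57.5 CPM in KO-O2 mice. All 4 groups overlapped, and the means ran from 51.2 CPM in KO-RA through WT-RA and WT-O2 to 55.1 CPM in KO-O2. The 4 log2 fold changes lay between -0.01 and 0.11, with edgeR q of 0.671 or more. The widest of their 95% intervals, in KO-O2 vs KO-RA, ran from -0.04 to 0.25.

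Vegfc, the ligand of Flt4, was low, at 2.62, 2.96, 2.76 and 2.44 CPM in WT-RA and 2.79, 3.66, 3.22 and 2.67 CPM in WT-O2 mice. In KO-RA mice it stood at 3.12, 3.50 and 3.27 CPM and in KO-O2 mice at 3.26, 3.49 and 3.98 CPM. The KO-RA values lay above all WT-RA values, with a log2 fold change of 0.29 (SE 0.14) and edgeR q = 0.23. The means rose from WT-RA through WT-O2 and KO-RA to KO-O2 with overlap at each step, and edgeR q was 0.463 or more in the other 3 comparisons.

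Pgf, placental growth factor, behaved alike at a like level. It stood at 2.69, 2.82, 2.19 and 2.44 CPM in WT-RA, at 2.71, 2.87, 3.26 and 2.52 CPM in WT-O2, at 3.16, 3.15 and 2.95 CPM in KO-RA and at 3.44, 3.01 and 3.49 CPM in KO-O2 mice. The means had the same order as for Vegfc. KO-RA again did not overlap WT-RA (log2 fold change 0.28, SE 0.14), with an edgeR adjusted p of 0.227. Its log2 fold change with hyperoxia was 0.16 in WT and 0.10 in KO, neither past the thresholds.

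The 3 receptors had lower means in KO than in WT mice in both exposures, by a fold of 0.753 to 0.846, and none passed the thresholds. Kdr stood at 34.9, 34.5, 35.7 and 34.4 CPM in WT-RA mice and at 40.4, 41.9, 31.8 and 46.5 CPM in WT-O2 mice. In KO-RA mice Kdr stood at 29.1, 31.9 and 24.1 CPM, all below WT-RA, and in KO-O2 mice at 32.3, 26.7 and 39.1 CPM, overlapping both WT-O2 and KO-RA. The log2 fold change of KO over WT was -0.30 (SE 0.13) in room air and -0.30 (SE 0.13) in hyperoxia, and both edgeR adjusted p-values, 0.188 and 0.244, missed the threshold. With hyperoxia the Kdr means were higher by 0.20 (SE 0.12) in WT and 0.21 (SE 0.14) in KO on the log2 scale, with edgeR q of 0.553 and 0.997. The means ran KO-RA, KO-O2, WT-RA and WT-O2, and KO-O2 overlapped WT-RA.

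Flt1, the receptor of high affinity for Vegfa, stood at 60.1, 54.2, 48.2 and 48.0 CPM in WT-RA and 45.4, 50.8, 42.4 and 65.0 CPM in WT-O2 mice. It stood at 43.5, 40.9 and 39.5 CPM in KO-RA and at 41.4, 33.7 and 54.2 CPM in KO-O2 mice. KO-RA lay below WT-RA without overlap. That log2 fold change was -0.35 (SE 0.16, 95% interval -0.68 to -0.02), with edgeR q = 0.184. Fitted on the 7 mice of these 2 groups alone, it was called by edgeR (q = 0.0564) and by DESeq2 (q = 0.0194). In KO-O2 vs WT-O2 it was -0.24 (SE 0.15) with overlap and an edgeR q of 0.447. With hyperoxia Flt1 differed by -0.05 (SE 0.14) in WT and 0.06 (SE 0.17) in KO. The means ran KO-RA, KO-O2, WT-O2 and WT-RA, each overlapping the next.

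Flt4 was the receptor of lowest level, at 8.001, 4.86, 5.90 and 6.03 CPM in WT-RA and 4.87, 5.41, 5.28 and 6.56 CPM in WT-O2 mice. It stood at 5.13, 5.67 and 3.202 CPM in KO-RA and at 4.40, 3.34 and 4.95 CPM in KO-O2 mice. All neighbouring groups in the order KO-O2, KO-RA, WT-O2 and WT-RA overlapped. The KO over WT log2 fold change was -0.41 (SE 0.21) in room air and -0.39 (SE 0.21) in hyperoxia, with edgeR q of 0.257 and 0.352.

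The receptors were set against a list of 14 other endothelial markers, none of which was called in any comparison and whose sums overlapped between genotypes in both exposures (337.1 to 386.8 CPM in WT-RA, 326.7 to 368.2 CPM in KO-RA). The log2 ratio of Kdr to these markers was 0.71 ± 0.08 (SD, n = 4) for WT-RA against 0.43 ± 0.20 (SD, n = 3) in KO-RA. That difference of -0.28 showed no overlap, and its two-sided exact permutation gave p = 0.0571, the lowest possible with 4 against 3 mice. For Flt1 the ratio was lower in KO-RA by 0.32, also without overlap and at the same exact permutation p. In hyperoxia the differences between KO and WT were -0.33 for Kdr and -0.28 for Flt1, both with overlap (exact permutation p = 0.114). With hyperoxia, the Kdr ratio was higher by 0.32 in WT with overlap (exact permutation p = 0.0571), and by 0.28 in KO, where the groups were apart (exact permutation p = 0.1, which groups of 3 cannot go below). The Flt1 ratio differed with hyperoxia by 0.07 in WT and 0.11 in KO, both with overlap (exact permutation p of 0.6 and 0.5). After Benjamini-Hochberg adjustment over the 16 exact tests of 4 ratios, no p was below 0.183. The log2 ratio of Flt1 to Kdr was 0.59 ± 0.16 (SD, n = 4) for WT-RA, 0.34 ± 0.14 (SD, n = 4) for WT-O2, 0.55 ± 0.18 (SD, n = 3) for KO-RA and 0.39 ± 0.07 (SD, n = 3) for KO-O2. The mean ratio was lower in hyperoxia in both genotypes, by 0.25 in WT (exact permutation p = 0.0857) and 0.17 in KO (exact permutation p = 0.2), with overlap in each.

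**Figure D3:**
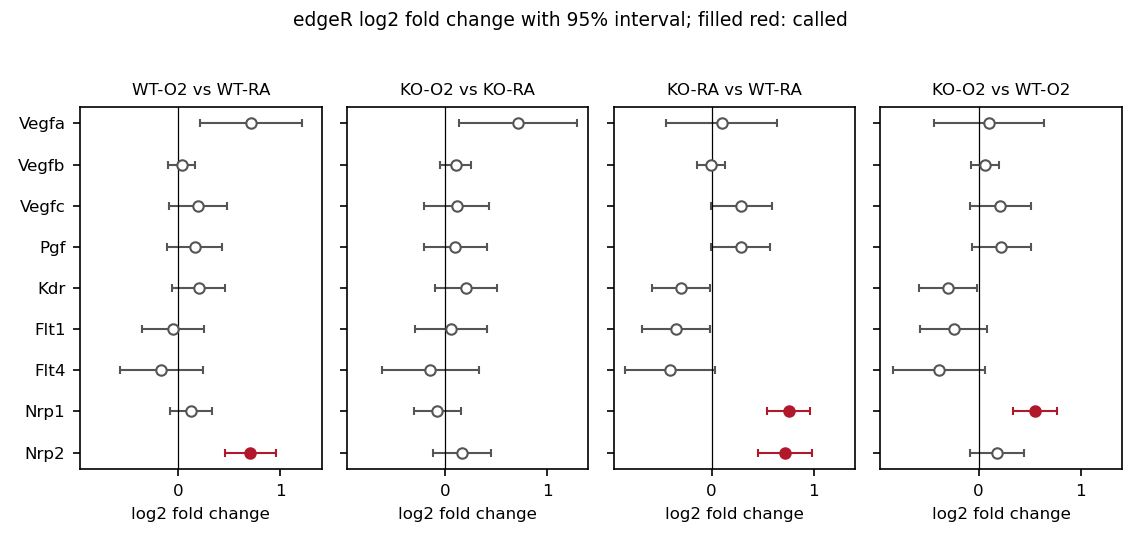
edgeR log2 fold change (horizontal axes) of each member in the 4 comparisons, with 95% intervals as bars and filled red points for called members. Nrp2 was called in WT-O2 vs WT-RA, both neuropilins in KO-RA vs WT-RA and Nrp1 in KO-O2 vs WT-O2, and the 3 receptors lay below 0 in both genotype comparisons.

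Nrp2, the neuropilin that pairs with Flt4 and with semaphorin 3F, was the one member called with hyperoxia. It stood at 69.3, 70.4, 44.4 and 64.9 CPM in WT-RA and at 103, 104.4, 102 and 97.3 CPM in WT-O2 mice. The 4 WT-O2 mice lay close together and far above every WT-RA mouse, a separation found for 5.99% of all genes. The log2 fold change was 0.71 (SE 0.12, 95% interval 0.46 to 0.95), called by edgeR with q = 0.0299, and Nrp2 ranked 14 of the 16637 genes by p. In KO-RA mice Nrp2 stood at 114, 98.8 and 93.8 CPM, which was the level of WT-O2, and in KO-O2 mice at 103, 121 and 121 CPM. KO-RA exceeded WT-RA by 0.72 (SE 0.13) on the log2 scale without overlap, called by edgeR with q = 0.00254.

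Within KO, the Nrp2 log2 fold change with hyperoxia was 0.17 (SE 0.13, 95% interval -0.12 to 0.45), with overlap and an edgeR q of 0.997. KO-O2 exceeded WT-O2 by 0.18 (SE 0.12), also with overlap and an edgeR q of 0.496. The response of KO minus that of WT was -0.54 (SE 0.18), with an edgeR unadjusted p of 0.00841 and an adjusted p of 1. A different response of Nrp2 in the 2 genotypes was therefore not established. By edgeR none of the 9 members and 0 of all 16637 genes (0%) passed the test of this interaction, 673 genes (4.05%) had an unadjusted p below 0.05, and DESeq2 called 0. The means rose from WT-RA through WT-O2 and KO-RA to KO-O2, and of these steps only the first was free of overlap.

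The Nrp2 call in WT ended when WT-O2 mouse 2 was left out (edgeR q = 0.126), when only the 8 WT mice were fitted (edgeR q = 0.108) and when WT-O2 mouse 4 was taken as room air (log2 fold change 0.57, q = 0.254). Without WT-RA mouse 3, the lowest, the difference was smaller at 0.57 but still called (edgeR q = 0.00648). Markers of meningeal and perivascular fibroblasts moved with Nrp2 in WT. The 7 markers summed to 76.54 to 152.3 CPM in WT-RA, lowest in mouse 3, and to 159.1 to 194.1 CPM in WT-O2, without overlap. None of these 7 was called in WT-O2 vs WT-RA, where 0.643% of all genes were. In KO-RA vs WT-RA 2 were called higher, where 10.4% of all genes were called. The 5 red cell genes moved the other way in WT, with sums of 279.2 to 342.5 CPM in WT-RA and 180.5 to 247.5 CPM in WT-O2, without overlap and with none called. The part of either list in the result was not tested. In KO, the red cell sums overlapped, and the fibroblast sums overlapped (124.7 to 220.9 CPM in room air and 139.2 to 177.9 CPM in hyperoxia).

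Nrp1, which binds Vegfa and semaphorin 3A, differed by genotype. It stood at 51.1, 45.7, 47.5 and 40.4 CPM in WT-RA and at 58.5, 49.8, 51.3 and 42.0 CPM in WT-O2 mice. In KO mice it stood at 85.2, 75.9 and 72.4 CPM in room air and at 69.5, 76.3 and 75.8 CPM in hyperoxia. Every KO mouse exceeded every WT mouse, while the 2 exposures overlapped within each genotype. KO exceeded WT by 0.75 (SE 0.10, edgeR q = 0.000427) in room air and by 0.55 (SE 0.10, edgeR q = 0.00481) in hyperoxia on the log2 scale. With hyperoxia, Nrp1 differed by 0.13 (SE 0.09) in WT and -0.08 (SE 0.11) in KO, with edgeR q of 0.646 and 0.997. The difference in KO-O2 vs WT-O2 is a fold of 1.47, so that Nrp1 was not called there at a minimum fold of 1.5.

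Markers of brain regions moved with genotype beside Nrp1. Of 9 striatal markers, 9 were called lower in KO in room air and 9 in hyperoxia, and of 8 thalamic markers 6 and 6. Of 12 hippocampal markers, 9 and 5 were called higher, with sums of 793.2 to 1202 CPM in WT and 1481 to 1807 CPM in KO libraries. Oligodendrocyte markers were called lower for 7 of 8 genes in room air and 4 of 8 in hyperoxia. Of 8 astrocyte markers 2 and 1 were called higher and of 10 mural markers 1 and 1 lower. No microglial, general neuronal, choroid plexus or red cell gene of the lists was called. Over all genes, 10.4% were called in KO-RA vs WT-RA and 6.86% in KO-O2 vs WT-O2, and the mural calls were near these shares. Within WT-O2, the mouse of lowest striatal sum (408.5 CPM) had the highest Nrp1 (58.5 CPM) and the mouse of highest sum (946.8 CPM) the lowest Nrp1 (42.0 CPM), with the other two in the same order. In WT-RA this order was not seen, since mouse 1 had both the highest striatal sum (862.7 CPM) and the highest Nrp1 (51.1 CPM).

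**Figure D4:**
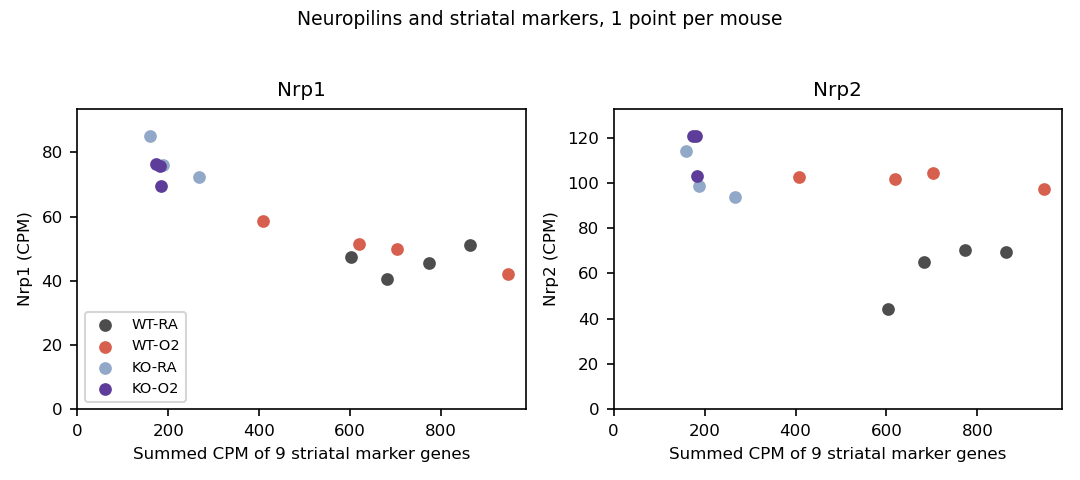
Nrp1 and Nrp2 (vertical axes, CPM) against the summed CPM of 9 striatal markers (horizontal axes), 1 point per mouse. The 6 KO mice lay at 160 to 267.6 CPM of the markers with high Nrp1 and Nrp2, and WT-O2 mice held Nrp2 near 100 CPM over the whole range of the markers in their group.

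With the striatal and thalamic scores as covariates, the Nrp1 log2 fold change of KO over WT was 0.19 in room air (edgeR q = 0.834) and -0.01 in hyperoxia (edgeR q = 0.998). With the hippocampal score, an alternative added after the data were seen, it was 0.30 (edgeR q = 0.465) and 0.13 (edgeR q = 0.814). For Nrp2 in KO-RA vs WT-RA the values were 0.62 (edgeR q = 0.546) and 0.68 (edgeR q = 0.326), so that the call ended while the size stayed near 0.72. Both fitted scores separated the genotypes without overlap. The thalamic score was -0.6785 or more in every WT mouse and -0.6971 or less in every KO mouse. In summed CPM the striatal markers were also apart. The thalamic sums were nearly so, with WT-RA mouse 3 (128.9 CPM) inside the KO range of 114.4 to 135.1 CPM. The fit with both scores called 3 of all genes in KO-O2 vs WT-O2, and that with the hippocampal score 15 in KO-RA vs WT-RA. The part of genotype and that of tissue makeup in the Nrp1 difference therefore cannot be told apart. In WT-O2 vs WT-RA, Nrp2 was called under the striatal and thalamic scores as well.

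**Figure D5:**
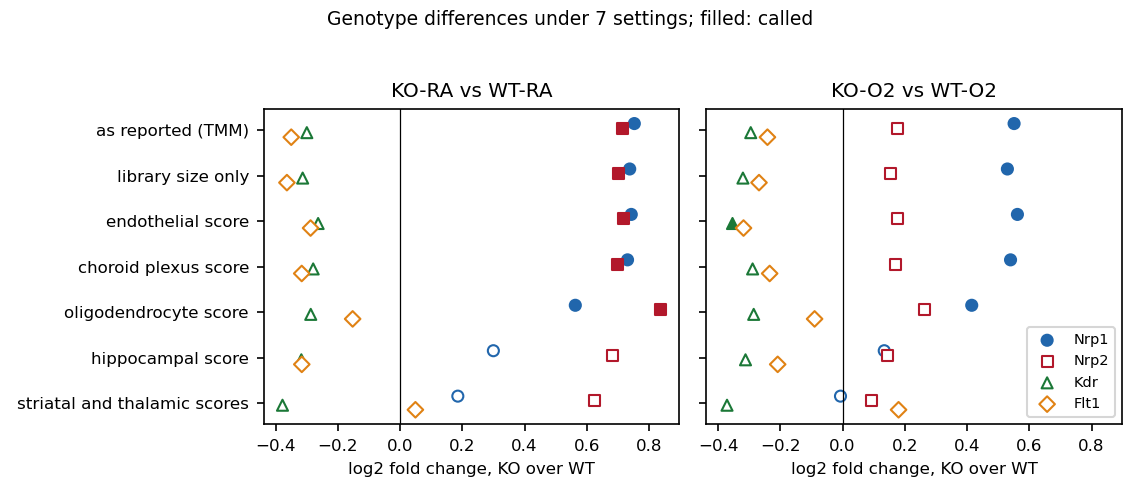
Log2 fold change of KO over WT (horizontal axes) for Nrp1, Nrp2, Kdr and Flt1 under 7 settings of the edgeR fit, with filled points for called genes. Nrp1 moved from 0.75 to 0.19 in room air and from 0.55 to -0.01 in hyperoxia under the striatal and thalamic scores, while Kdr stayed below 0 under all 7 settings.

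The balance of the neuropilins had a higher mean in hyperoxia in both genotypes, but did not pass after adjustment. The log2 ratio of Nrp2 to Nrp1 was 0.41 ± 0.36 (SD, n = 4) for WT-RA, 1.02 ± 0.17 (SD, n = 4) for WT-O2, 0.39 ± 0.03 (SD, n = 3) for KO-RA and 0.63 ± 0.06 (SD, n = 3) for KO-O2. It was higher in hyperoxia by 0.61 in WT and by 0.24 in KO, without overlap in either genotype. The two-sided exact permutation p was 0.0286 in WT and 0.1 in KO, the smallest that these group sizes allow, and the adjusted p over 16 tests was 0.183 for both. With WT-O2 mouse 4 taken as room air, the WT difference was 0.38 (exact permutation p = 0.25). KO-O2 lay below WT-O2 by 0.39 without overlap (exact permutation p = 0.0571), and KO-RA differed from WT-RA by -0.02 (exact permutation p = 0.857). The ratio was thus near 0.4 in room air in both genotypes although both neuropilins were higher in KO-RA.

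Levels of different members can be compared per length only. Divided by the longest annotated coding transcript, Vegfb was highest in every group, at 40 to 43 CPM per kb, and Flt4 lowest, at 0.676 to 0.991 CPM per kb. In WT-RA, Vegfa stood at 16.4, Nrp1 at 12.8, Nrp2 at 9.26, Flt1 at 7.63 and Kdr at 5.89 CPM per kb. Divided by the mean length of the coding transcripts, Vegfa passed Vegfb in both hyperoxia groups. Lengths were taken from a GRCm38 annotation, while the counts were made on GRCm39. In that annotation, Nrp1 shares 80 exon bases with a microRNA gene, and Nrp2 overlaps an antisense gene with 0 shared exon bases.

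Within groups, the receptors varied together over the 14 mice. The deviations of log2 CPM from the group means gave r = 0.779 for Flt1 and Kdr, 0.677 for Flt4 and Kdr and 0.618 for Flt1 and Flt4. Vegfa varied with Flt1 (r = 0.644) and Kdr (r = 0.595) and against Nrp1 (r = -0.665). The mice share their libraries over all genes, so these values are descriptions. The genes most like Flt1 were Hspa12b (r = 0.944, rho = 0.908), Ptprb (r = 0.909, rho = 0.842), the endothelial phosphatase of the Tie2 receptor, and Elmsan1 (r = 0.886, rho = 0.859). For Kdr the first was Notch3 (r = 0.905, rho = 0.846), a receptor of mural cells, followed by 4931406P16Rik (r = 0.899) and Abhd11os (r = 0.864). For Flt4 they were Slc35c2 (r = 0.914), Ucma (r = 0.903) and Dysf (r = 0.87).

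The genes most like Nrp1 were Siglece (r = 0.946, rho = 0.96), Proser1 (r = 0.941, rho = 0.938) and Platr25 (r = 0.924, rho = 0.877). Those most like Nrp2 were Mbnl2 (r = 0.947, rho = 0.916), Col25a1 (r = 0.942, rho = 0.899) and Fstl5 (r = 0.917, rho = 0.873), and without WT-RA mouse 3 and KO-O2 mouse 1 their r was 0.873, 0.794 and 0.855. For Vegfb they were Cpt1a (r = 0.915), 2310011J03Rik (r = 0.892) and Ccdc17 (r = 0.877). For Vegfc they were Wfs1 (r = 0.857), a hippocampal field marker, Nlrx1 (r = 0.798) and Gm14308 (r = 0.786), and for Pgf Ficd (r = 0.911), Npb (r = 0.877) and Fcer1g (r = 0.863).

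Among the semaphorins and plexins, the other partners of the neuropilins, calls were made between genotypes, beside the differences in striatal and thalamic markers given above, whose part in them was not tested. Of 12 genes, none was called by edgeR in either hyperoxia comparison, where the smallest unadjusted p was that of Plxna3 (0.07 in WT and 0.347 in KO). In KO-RA vs WT-RA 1 was called higher and 3 lower, where 10.4% of all genes were called. In KO-O2 vs WT-O2 2 were called higher and 2 lower, where 6.86% of all genes were. The medians were 0.17 and 0.11, beside -0.01 over all genes in each. Sema3a, the repulsive ligand of Nrp1, was lower in KO by 1.98 in room air (20.1 and 5.07 CPM) and by 1.94 in hyperoxia (16.8 and 4.39 CPM) on the log2 scale, with edgeR q of 0.00055 and 0.00125. Sema3f, the ligand of Nrp2, was lower by 1.01 and 1.18 (edgeR q of 0.0351 and 0.0238). Sema3c was higher in KO, from 49.2 to 83.2 CPM in room air (edgeR q = 0.00648) and from 54.3 to 76.6 CPM in hyperoxia (q = 0.0788). Plxnd1 was lower in KO-RA (-0.49, edgeR q = 0.0884), and Sema3e, its ligand, was higher in KO-O2 (0.35, edgeR q = 0.0594). In WT-RA, Plxnd1 stood at 114.1 CPM, where Eng, the highest of the endothelial markers, stood at 49.3 CPM. The cells that gave Plxnd1 cannot be told in a bulk sample.

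Of 28 genes of signalling below the Vegf receptors, none was called with hyperoxia by edgeR, and the smallest unadjusted p was that of Prkcb in WT (0.0174) and of the adaptor Nck2 in KO (0.0414). Between genotypes, protein kinase C alpha (Prkca) was higher in KO by 0.48 in room air and 0.43 in hyperoxia (edgeR q of 0.00272 and 0.00768), and the ERK kinase Mapk3 was lower by 0.36 and 0.46 (q of 0.0043 and 0.00156). Nck2 was also higher in KO-O2 (0.43, edgeR q = 0.00761). Of the 28 genes, 1 was thus called higher and 1 lower in room air, where 10.4% of all genes were called. In hyperoxia 2 were called higher and 1 lower, where 6.86% of all genes were.

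Of 16 genes known to answer to Vegf or to mark tip cells in endothelium, 15 were tested and none was called with hyperoxia by edgeR. The apelin receptor Aplnr had the smallest p in WT, with 10.04 and 6.603 CPM in WT-RA and WT-O2 (edgeR adjusted p of 0.343). Its ligand Apln had the smallest p in KO, with 24.9 and 38.4 CPM in KO-RA and KO-O2 (edgeR adjusted p of 0.997). In KO-RA the guidance receptor Unc5b was lower than in WT-RA (-0.88, edgeR q = 0.0236), and Egr3 and Cxcr4 were higher by 0.35 and 0.47 (q of 0.0491 and 0.0547). Egr3 and Cxcr4 were higher in KO-O2 as well, by 0.39 and 0.45 (edgeR q of 0.0397 and 0.0912). Over all genes, 10.4% were called in KO-RA vs WT-RA and 6.86% in KO-O2 vs WT-O2. In WT-RA, Egr3 stood at 93.7 CPM, above all 14 endothelial markers, of which Eng was highest at 49.3 CPM. The cells that gave these transcripts cannot be told in a bulk sample. The part of the differences in striatal and thalamic markers in these calls was not tested. None of 5 angiopoietin and Tie genes was called by edgeR in any comparison, with Angpt1 in KO-RA vs WT-RA at the smallest unadjusted p (0.0327).

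Of 10 genes of the HIF subunits and their oxygen sensors, Egln3 was lower in KO by 0.64 in room air and 0.55 in hyperoxia (edgeR q of 0.0121 and 0.0387), and none was called with hyperoxia. Epas1, a HIF subunit, came first by p in KO-O2 vs KO-RA (log2 fold change 0.26, edgeR adjusted p of 0.874). Arnt came first in WT-O2 vs WT-RA (-0.15, edgeR adjusted p of 0.556). Of 14 HIF targets outside the Vegf family, Adm was called higher in WT-O2 and Car9 lower in KO-RA (-1.29, edgeR q = 0.0109). Over all genes, the called share was 10.4% in KO-RA vs WT-RA, 6.86% in KO-O2 vs WT-O2 and 0.643% between the WT groups. The medians of the 14 HIF targets were 0.19 with hyperoxia in WT and 0.14 in KO, beside -0.01 and 0.00 over all genes. They went both ways, with 9 of 14 positive in WT and 7 of 14 in KO. No gene of these lists was called by edgeR in the interaction, where Car9 had the smallest unadjusted p (0.0082).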

How the data were processed

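Hippocampal RNA of 14 mice was analysed. The authors deposited estimated counts per gene, made with Kallisto on GRCm39 and summed to genes with tximport, per their methods. Versions were not given in the sources used here. Counts were rounded, filtered with filterByExpr, normalized by TMM and fitted in edgeR 4.0.16 (R 4.3.3) with 1 coefficient per group, all libraries together, and contrasts were tested with its quasi-likelihood F-test, adjusted by Benjamini-Hochberg. Calls used a fold of at least 1.25, p below 0.05 and q below 0.1. Values are CPM, and log2 CPM used a prior count of 2. Ratios were compared by two-sided exact permutation. Depth was 27272270 to 28257496 counts per library. The spread between mice includes counting error, which is largest for members of low level such as Vegfc, Pgf and Flt4.

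Named are all 9 members, the called genes of each pathway list (at most 4 by size, or the gene of smallest p) and, for each member, genes of at least 1 CPM most like it. The members and lists were chosen with earlier results of these data known. Alternatives were DESeq2 1.42.0, other scalings, filters and thresholds, 2 groups only, WT-O2 mouse 4 as room air, marker scores as covariates, and each mouse left out. A marker score is the mean over the genes of a list of log2 CPM, standardized for each gene over all libraries. The hippocampal and oligodendrocyte scores were added after seeing the data. The test was checked on simulated data. The windows before transcription starts came from RefSeq, build GRCm38.p6, and no coordinates were converted.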

Additional observations from a re-analysis of the deposited data

How the results depend on the processing

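No paired analysis was possible because the labels give each mouse its own number and the groups share no replicate numbers. Among the values of single members, 526 of 557 kept their direction and side of the threshold under the alternatives other than left-out mice.

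In WT-O2 vs WT-RA, where 1 member was called, 0 were called by edgeR on the 2 groups or with WT-O2 mouse 4 as room air, and 2 with the striatal and thalamic scores or the oligodendrocyte score, which added Vegfa (0.78 under each, q of 0.0642 and 0.083). These scores raised the calls over all genes from 107 to 284 and 416. Leaving out a mouse gave 0 (without WT-O2 mouse 2) to 2 (without WT-O2 mouse 3). In KO-O2 vs KO-RA, where 0 were called, DESeq2 on the 2 groups called 1. In KO-RA vs WT-RA, where 2 were called, 4 were called with WT-O2 mouse 4 as room air, adding Kdr and Flt1, and 0 with the striatal and thalamic or the hippocampal score. In KO-O2 vs WT-O2, where 1 was called, 0 were called at a fold of 1.5 or with those scores, and 2 with the endothelial score, adding Kdr (-0.35, q = 0.0698).

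Some small values turned. Flt1 and Flt4 in WT-O2 vs WT-RA were 0.1407 and 0.0547 with the endothelial score. Vegfa in KO-RA vs WT-RA was -0.2959 with WT-O2 mouse 4 as room air, and with the striatal and thalamic scores it was 1.5393, and 1.6165 in KO-O2 vs WT-O2, neither called. Vegfb in KO-RA vs WT-RA was 0.0032 by DESeq2 on all or on 2 groups, 0.003 with DESeq2 size factors, 0.0096 without a filter, and 0.0136, 0.0082, 0.0121, 0.1895 and 0.0662 with the striatal and thalamic, endothelial, choroid plexus, hippocampal and oligodendrocyte scores. With the striatal and thalamic scores, Flt1 was 0.0493 in KO-RA vs WT-RA and 0.1798 in KO-O2 vs WT-O2, and Nrp1 was -0.0068 in KO-O2 vs WT-O2. The cause was not tested.

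Leaving out a mouse gave -0.0047 to 0.0772 for Vegfb (turned without WT-RA 2) and -0.1858 to 0.0317 for Flt1 (WT-RA 1, WT-O2 1 or WT-O2 3) in WT-O2 vs WT-RA. In KO-O2 vs KO-RA it gave -0.1392 to 0.2094 for Flt1 (KO-O2 3) and -0.3502 to 0.0233 for Flt4 (KO-RA 2 or KO-O2 2). In KO-RA vs WT-RA it gave -0.0017 to 0.2061 for Vegfa (KO-RA 3) and -0.0404 to 0.0416 for Vegfb (WT-RA 1, WT-RA 4 or KO-RA 1), and in KO-O2 vs WT-O2 -0.0917 to 0.4106 for Vegfa (WT-O2 1, WT-O2 3 or KO-O2 1).

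With WT-O2 mouse 4 as room air, the log2 ratio of Nrp2 to Nrp1 differed by 0.383 in WT-O2 vs WT-RA (exact permutation p = 0.25), that of Flt1 to Kdr by -0.279 (exact p = 0.0357) and that of Flt1 to endothelial markers by -0.105, and in KO-RA vs WT-RA Kdr and Flt1 to endothelial markers differed by -0.378 and -0.393 (exact p = 0.0357 each). With a mouse left out, Nrp2 to Nrp1 ranged from 0.436 to 0.696 in WT-O2 vs WT-RA, where 4 against 3 mice cannot go below an exact p of 0.0571, and from -0.189 to 0.071 in KO-RA vs WT-RA (turned without WT-RA 2 or 4). Flt1 to Kdr ranged from -0.118 to 0.062 in KO-RA vs WT-RA (WT-RA 1 or KO-RA 2) and from -0.007 to 0.099 in KO-O2 vs WT-O2 (WT-O2 1), and Flt1 to endothelial markers from -0.029 to 0.154 in WT-O2 vs WT-RA (WT-O2 4).

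Over all genes, the calls ranged from 6 to 416 in WT-O2 vs WT-RA (107 as reported), 1 to 28 in KO-O2 vs KO-RA (2), 15 to 1929 in KO-RA vs WT-RA (1738) and 3 to 1485 in KO-O2 vs WT-O2 (1142). With 3 KO mice per group, intervals in KO are wide, and a member not called there is not shown to be unchanged.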
